A study of Mus musculus with 17 samples.

Results

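Dbp, Tef, Hlf, Nfil3, Bhlhe40, Bhlhe41, Rora and Ciart encode transcription factors and a co-repressor that carry the output of the circadian clock or feed back on its core loop. They were taken by gene symbol from a deposited count table, 8 genes of the 21982 in it, and all 8 passed the filter on low counts that left 12486 genes for testing. After 4 h at 6 °C, in knockout and in wild-type brown fat alike, Dbp, Hlf and Bhlhe40 fell while Nfil3 and Rora rose. Bhlhe41 fell in knockouts, where its level was 1.94-fold lower at 6 °C, and Ciart rose in wild types, where its level was 2.55-fold higher at 6 °C. For neither gene did the difference between the genotypes' cold responses pass the test. Tef did not pass the test in either genotype. No member differed between the genotypes at an adjusted p below 0.05.

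The circadian clock is a transcriptional loop in which CLOCK and BMAL1 (the product of Arntl) activate genes through E-box elements and the PER and CRY proteins repress them. Dbp, Tef and Hlf encode the PAR-bZIP activators, which bind D-box elements, and Nfil3 encodes E4BP4, a repressor that binds the same elements. Bhlhe40 and Bhlhe41 encode DEC1 and DEC2, which bind E-boxes and repress CLOCK and BMAL1 activity, Ciart encodes CHRONO, a co-repressor of the same pair, and Rora encodes the receptor RORα, which activates genes such as Arntl through ROR elements. In brown fat the clock is known to influence the daily course of heat production, and many of its outputs swing strongly with the time of day.

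Messenger RNA was sequenced from brown adipose tissue, the heat-producing fat, with 1 library from each of 17 mice on a C57BL/6 strain background. The series text calls the animals littermates and gives that they were housed singly and without food for the 4 h of the experiment, whatever the temperature. Homozygous Noct knockouts at 6 °C numbered 4 (1 female, 3 male, labelled ages 11.14 to 17), knockouts at 22 °C numbered 4 (1 female, 3 male, 11.14 to 23.57), wild types at 6 °C numbered 5 (4 female, 1 male, 11.14 to 23) and wild types at 22 °C numbered 4 (3 female, 1 male, 11.14 to 23.57). The sources used here give neither the unit of age nor which part of Noct the allele removes. They also do not give the time of day of collection for any group, so these rhythmic genes were read at unstated clock times. Any difference in that time between the 6 °C and 22 °C groups cannot be told apart from an effect of cold. CPM values are counts scaled to library size after TMM normalisation, given in the order of the replicate numbers, and RPKM values are the authors' counts scaled to gene length and library total. "Rose" and "fell" stand for an adjusted p below 0.05 over all 12486 tested genes in edgeR's quasi-likelihood test, with labelled sex as a covariate because 6 of 8 knockouts and 2 of 9 wild types were male.

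Library totals ran from 27261943 to 30797852 counts in knockouts at 6 °C, from 24823535 to 32929256 in knockouts at 22 °C, from 18410748 to 33663371 in wild types at 6 °C and from 26921197 to 47598200 in wild types at 22 °C. Noct had 18.2, 27.2, 19.4 and 25.6 CPM in knockouts at 6 °C against 457, 372, 303, 238 and 360 CPM in wild types at 6 °C, and 9.71, 5.36, 34.2 and 3.37 CPM in knockouts at 22 °C against 91.5, 152, 139 and 176 CPM in wild types at 22 °C, so each knockout library lay below each wild-type library. Of the 12 brown adipocyte markers none was at 0 in all libraries, and their summed level was higher in the cold, at 14323 to 18846 CPM in knockouts at 6 °C against 10523 to 14257 CPM in knockouts at 22 °C, and at 14786 to 19075 CPM in wild types at 6 °C against 10563 to 12014 CPM in wild types at 22 °C. Singly, 4 of the 12 rose and 0 fell by edgeR in knockouts, and 5 rose and 2 fell in wild types. Their median log2 change was 0.07 in knockouts and 0.10 in wild types. The 6 Schwann cell and nerve markers summed to 74.4 to 134 CPM in knockouts at 6 °C against 57.1 to 61.0 CPM in knockouts at 22 °C, and to 97.5 to 138 CPM in wild types at 6 °C against 60.7 to 74.7 CPM in wild types at 22 °C. These sums do not stand for each marker. Of the 5 tested, 1 rose and 0 fell by edgeR in knockouts, and 1 rose and 1 fell in wild types. Their median log2 change was -0.048 in knockouts and -0.054 in wild types. Macrophage markers summed to 61.0 to 107 CPM in knockouts at 6 °C against 52.7 to 61.0 CPM in knockouts at 22 °C, and to 56.9 to 84.9 CPM in wild types at 6 °C against 60.0 to 84.7 CPM in wild types at 22 °C. The 5 white adipocyte markers in the table summed to 18.6 to 28.6 CPM in knockouts at 6 °C against 19.0 to 45.5 CPM in knockouts at 22 °C, and to 15.7 to 36.3 CPM in wild types at 6 °C against 30.6 to 52.2 CPM in wild types at 22 °C; 1 of the 5, the leptin gene Lep, fell in each cold response, and their median log2 change was -0.51 in knockouts and -0.62 in wild types. Skeletal muscle markers, at 21.7 to 1229 CPM summed over 15 genes, varied within every group and 0 of 15 were called by edgeR in either cold response. The part of these marker levels in the results on the 8 genes was not tested. One library stood apart: wild-type 22 °C mouse 2, the single male of its group, had 493 CPM of Ppargc1a, a coactivator gene induced by cold, against 92.4 to 116 CPM in the other mice of that group.

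Promoters show which elements of the loop stand near the start sites of these genes. RefSeq promoter windows, from 250 bases before to 50 bases after a start site on GRCm38.p6, matched 7 of the 8 members in 8 windows, Tef having more than 1 start site and Bhlhe40 having no entry. Both strands were searched for the E-box CACGTG, the D-box TTANGTAA, the ROR element TNGGTCA and the cAMP element TGACGTCA, which 7.15%, 2.32%, 11% and 1.79% of all 32851 such windows held. Ciart, Nfil3 and Hlf are printed whole, 5′ to 3′ on the strand of the gene, with the searched elements in capitals. They were chosen because they hold the E-box cluster, a ROR match and the cAMP element found among the members. The second Tef window, described below, holds a ROR match as well.
Ciart promoter: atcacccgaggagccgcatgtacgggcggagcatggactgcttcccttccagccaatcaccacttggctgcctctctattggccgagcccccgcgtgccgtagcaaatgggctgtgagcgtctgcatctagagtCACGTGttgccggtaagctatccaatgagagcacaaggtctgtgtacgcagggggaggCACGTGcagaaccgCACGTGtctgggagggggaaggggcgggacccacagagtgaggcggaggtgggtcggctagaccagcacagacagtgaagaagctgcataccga
Nfil3 promoter: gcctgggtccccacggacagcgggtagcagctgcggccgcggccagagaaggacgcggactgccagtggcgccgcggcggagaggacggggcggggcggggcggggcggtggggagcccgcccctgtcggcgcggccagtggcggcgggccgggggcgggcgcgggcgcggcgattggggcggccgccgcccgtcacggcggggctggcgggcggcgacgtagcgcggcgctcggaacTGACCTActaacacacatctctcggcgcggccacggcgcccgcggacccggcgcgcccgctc
Hlf promoter: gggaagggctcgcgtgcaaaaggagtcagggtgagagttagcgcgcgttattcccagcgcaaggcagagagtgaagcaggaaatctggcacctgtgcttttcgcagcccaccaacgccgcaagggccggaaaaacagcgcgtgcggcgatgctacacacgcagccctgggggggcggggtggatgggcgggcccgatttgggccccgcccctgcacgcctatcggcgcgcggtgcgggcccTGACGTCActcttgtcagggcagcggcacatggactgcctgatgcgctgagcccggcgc
The Ciart window (chr3:95882179-95882478, minus strand) holds 3 E-boxes, whose first bases lie at -116, -58 and -44 from the start site, and only 29 of all windows (0.0883%) hold 3 or more. The Nfil3 window (chr13:52980990-52981289, minus strand) holds 1 ROR match, on the strand opposite to the gene, with its first base at -12. The Hlf window (chr11:90390868-90391167, minus strand) holds 1 cAMP element with its first base at -9. None of the windows searched held a D-box, and the windows of Dbp and Rora held none of these elements.

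Single E-boxes stood in the windows of Tef and Bhlhe41, shown here with the bases beside them and the E-box in capitals, for comparison with the cluster in Ciart.
Tef start site 1: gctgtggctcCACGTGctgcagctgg
Tef start site 2: cctggcccagCACGTGtctacatcgt
Bhlhe41: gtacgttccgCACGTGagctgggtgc
These stretches are chr15:81802536-81802561 and chr15:81811266-81811291 for Tef (plus strand) and chr6:145865558-145865583 for Bhlhe41 (minus strand), and the E-boxes begin at -127, -138 and -153 from their start sites. The second Tef window also holds a ROR match at -219. A match is a description of the letters in the window and not a bound site. Cold responses of Ciart, Bhlhe41 and Tef, whose windows hold an E-box, are given below. Whether the element bears on them was not tested.

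Among the PAR-bZIP activators, Dbp showed the largest fall in the cold in both genotypes. Dbp had 10.1, 8.24, 4.10 and 5.06 CPM in knockouts at 6 °C against 22.2, 24.4, 30.3 and 16.8 CPM in knockouts at 22 °C, and the groups did not overlap. Wild types at 6 °C had 5.67, 8.12, 7.18, 7.22 and 7.69 CPM of Dbp against 18.3, 11.3, 21.5 and 12.6 CPM in wild types at 22 °C, again without overlap. The highest cold value of Dbp in either genotype was in knockout mouse 1, the single female of its group. Dbp fell by 1.80 ± 0.25 on the log2 scale in knockouts (SE; adjusted p = 0.000158), a 3.47-fold lower level, and by 1.13 ± 0.23 in wild types (adjusted p = 0.00196), a 2.19-fold lower level. Dbp (chr7:45705088-45710203, plus strand) overlaps Sphk2 on the opposite strand over 737 bases. That is an overlap of gene spans, introns included, and overlap of exons was not checked. No strand setting of the counting is stated, so any reads shared by both cannot be told apart. Sphk2, a sphingosine kinase gene, moved the other way, at 0.65 ± 0.18 in knockouts (adjusted p = 0.0170) and 0.34 ± 0.17 in wild types (adjusted p = 0.147).

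Hlf (chr11:90336536-90390895, minus strand), whose promoter is printed above, had 16.9, 21.9, 18.8 and 14.2 CPM in knockouts at 6 °C against 32.6, 43.9, 46.8 and 45.0 CPM in knockouts at 22 °C. Every cold knockout lay below every knockout at 22 °C. In wild types at 6 °C Hlf stood at 22.9, 26.5, 16.3, 16.2 and 15.6 CPM, against 34.8, 25.9, 40.1 and 34.6 CPM in wild types at 22 °C. Those ranges overlapped, because cold mouse 2, at 26.5 CPM, lay just above mouse 2 of the 22 °C group, at 25.9 CPM. Hlf fell by 1.22 ± 0.18 in knockouts (adjusted p = 0.000231) and by 0.81 ± 0.17 in wild types (adjusted p = 0.00226), which is 2.33-fold lower in knockouts and 1.76-fold lower in wild types. Without wild-type 22 °C mouse 2 the wild-type fall of Hlf was 1.00.

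Tef (chr15:81802421-81826863, plus strand), the most abundant of the activators, was nearly level across the groups. It had 112, 104, 91.1 and 77.9 CPM in knockouts at 6 °C against 98.3, 105, 141 and 90.1 CPM in knockouts at 22 °C. Wild types at 6 °C had 119, 107, 109, 101 and 120 CPM of Tef against 91.2, 92.4, 134 and 106 CPM in wild types at 22 °C. The ranges overlapped in both genotypes. The log2 change of Tef in the cold was -0.18 ± 0.15 in knockouts (95% interval -0.50 to 0.14, adjusted p = 0.444) and 0.07 ± 0.14 in wild types (95% interval -0.23 to 0.37, adjusted p = 0.771), and the wild-type value turned to -0.13 when libraries were scaled by total counts.

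Nfil3 (chr13:52967209-52981073, minus strand), the D-box repressor, rose in the cold by nearly the same amount in both genotypes. It had 17.9, 18.1, 18.3 and 16.3 CPM in knockouts at 6 °C against 6.38, 5.84, 5.88 and 6.25 CPM in knockouts at 22 °C, with little spread in either group. Wild types at 6 °C had 25.3, 21.5, 20.7, 19.0 and 20.7 CPM of Nfil3 against 5.12, 10.6, 6.23 and 8.38 CPM in wild types at 22 °C. Neither genotype's temperature groups overlapped, and the highest value at 22 °C was in wild-type mouse 2. Nfil3 rose by 1.54 ± 0.17 in knockouts (adjusted p = 2.17e-05), a 2.90-fold higher level, and by 1.52 ± 0.16 in wild types (adjusted p = 1.64e-05), a 2.86-fold higher level. Leaving out wild-type 22 °C mouse 2 gave a wild-type rise of 1.72.

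**Figure D1:**
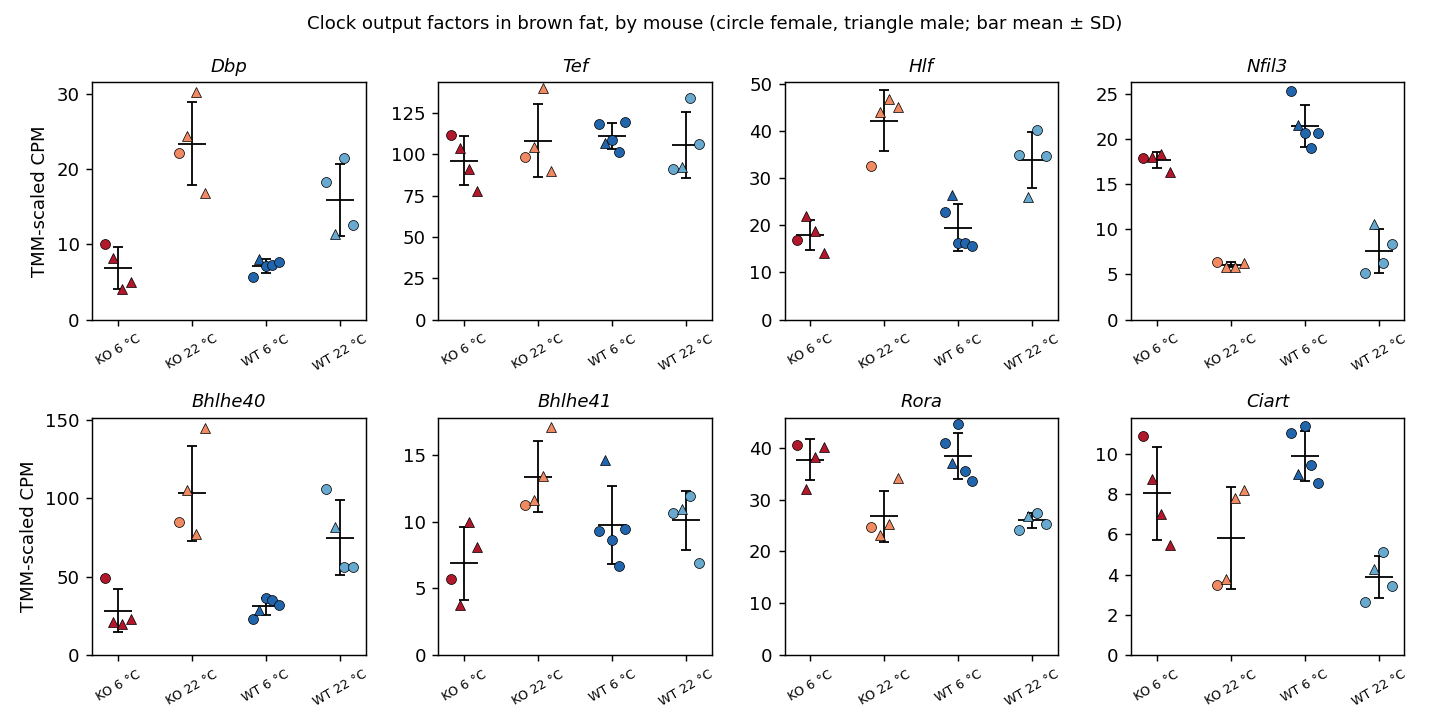
Level in CPM (linear axes from 0) of each of the 8 genes in every mouse, with circles for females, triangles for males and bars for the mean ± SD of each group (n = 4, 4, 5 and 4, left to right). Dbp, Hlf and Bhlhe40 lie lower and Nfil3 and Rora higher at 6 °C in both genotypes, and 1 cold knockout stands apart for Bhlhe40 at 49.3 CPM.

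Of the DEC repressors, Bhlhe40 (chr6:108660629-108666925, plus strand) fell in both genotypes. It had 49.3, 21.3, 20.0 and 23.1 CPM in knockouts at 6 °C against 85.1, 106, 77.5 and 145 CPM in knockouts at 22 °C. Wild types at 6 °C had 23.3, 28.7, 36.4, 35.3 and 31.9 CPM of Bhlhe40 against 106, 81.7, 56.4 and 56.0 CPM in wild types at 22 °C. In neither genotype did the temperature groups overlap, but knockout 6 °C mouse 1 stood well above the rest of its group. Bhlhe40 fell by 1.91 ± 0.28 in knockouts (adjusted p = 0.00023), to a 3.76-fold lower level, and by 1.29 ± 0.26 in wild types (adjusted p = 0.00167), to a 2.45-fold lower level. Without knockout 6 °C mouse 1 the knockout fall was 2.28.

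Bhlhe41 (chr6:145858243-145865558, minus strand), the gene of DEC2, passed the test in knockouts. It had 5.71, 3.75, 10.0 and 8.08 CPM in knockouts at 6 °C against 11.3, 11.6, 13.4 and 17.1 CPM in knockouts at 22 °C, and the groups did not overlap. In wild types at 6 °C Bhlhe41 stood at 9.29, 14.6, 8.61, 6.70 and 9.46 CPM against 10.6, 10.96, 11.9 and 6.90 CPM in wild types at 22 °C, with ranges that overlapped almost wholly. Bhlhe41 fell by 0.96 ± 0.24 in knockouts (adjusted p = 0.0092), whereas in wild types its log2 change was -0.06 ± 0.23 (95% interval -0.54 to 0.41, adjusted p = 0.866).

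Rora (chr9:68653786-69388246, plus strand), the RORα gene, showed the smallest of the changes that passed the test. It had 40.6, 32.0, 38.2 and 40.1 CPM in knockouts at 6 °C against 24.6, 23.2, 25.2 and 34.1 CPM in knockouts at 22 °C. Mouse 4 of the 22 °C knockouts, at 34.1 CPM, lay above cold mouse 2, so these ranges overlapped. Wild types at 6 °C had 41.0, 37.0, 44.7, 35.4 and 33.7 CPM of Rora against 24.2, 26.9, 27.5 and 25.3 CPM in wild types at 22 °C, without overlap. Rora rose by 0.50 ± 0.13 in knockouts (adjusted p = 0.0105), 1.41-fold, and by 0.56 ± 0.12 in wild types (adjusted p = 0.00283), 1.48-fold. The knockout rise of Rora was lost when only the compared groups were fitted (0.50, adjusted p = 0.0575) and when only the majority sex of each genotype was used (0.42, adjusted p = 0.0955).

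Ciart (chr3:95878503-95882251, minus strand), whose promoter holds the E-box cluster printed above, rose in wild types. It had 10.9, 8.78, 7.03 and 5.48 CPM in knockouts at 6 °C against 3.48, 3.78, 7.83 and 8.20 CPM in knockouts at 22 °C. Each knockout group was spread over a range wider than the gap between the group means, and the groups overlapped. Wild types at 6 °C had 11.05, 9.02, 11.4, 9.43 and 8.56 CPM of Ciart against 2.66, 4.27, 5.11 and 3.45 CPM in wild types at 22 °C, well apart. Ciart rose by 1.35 ± 0.27 in wild types (adjusted p = 0.00167), while in knockouts its log2 change was 0.48 ± 0.28 (95% interval -0.11 to 1.07, adjusted p = 0.247). The knockout value of Ciart was 0.26 without 6 °C mouse 1, 0.25 without 22 °C mouse 1 and 0.11 with the majority sex alone. The whole gene span of Ciart, 3749 bases with introns, is overlapped by that of C920021L13Rik on the opposite strand, which has no row in the count table. Overlap of their exons was not checked, and any reads shared by both cannot be told apart without a strand setting. Annotated genes on the opposite strand also overlap the gene spans of Tef, Bhlhe40, Bhlhe41 and Rora, over 193, 306, 1876 and 15359 bases, and have no row in the table.

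By count, 6 of 8 members passed the test in the knockout cold response (2 rose, 4 fell), where 21.6% of all tested genes did (11.6% rose, 10.0% fell). In the wild-type cold response 6 of 8 passed as well (3 rose, 3 fell), where 27.6% of all tested genes did (14.3% rose, 13.3% fell). Temperature groups did not overlap for 5 of 8 members in knockouts, against 20.2% of all tested genes, and for 5 of 8 in wild types, against 25.8% of all tested genes. The median size of the members' log2 change was 1.09 in knockouts, beside 0.27 over all tested genes, and 0.97 in wild types, beside 0.29 over all tested genes. In whole tissue, fewer cells of a type and less RNA per cell cannot be told apart, so a fall here is a fall in the share of the tissue's RNA. The log2(RPKM + 1) scale leaves out TMM scaling and by construction shrinks changes of genes at low RPKM. On it the values were smaller for Rora (0.30 in knockouts and 0.25 in wild types), Bhlhe41 in knockouts (-0.61) and Ciart in wild types (0.86). Nfil3 (1.21 in knockouts and 1.16 in wild types), and Dbp (-1.48) and Hlf (-1.035) in knockouts, were smaller in size as well. All of these still passed. With total counts, also without TMM scaling, Rora rose by 0.44 in knockouts and by 0.35 in wild types.

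**Figure D2:**
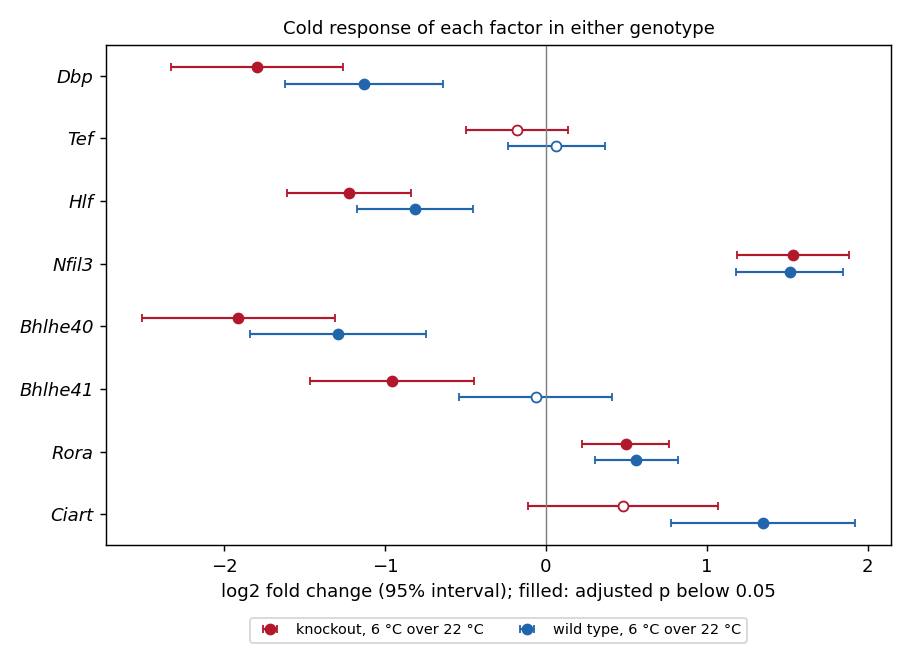
Log2 fold change of each gene at 6 °C over 22 °C in knockouts (red) and in wild types (blue), with 95% intervals; filled points passed an adjusted p below 0.05. Dbp, Hlf and Bhlhe40 lie left of 0 and Nfil3 and Rora right of it in both genotypes, while Bhlhe41 is filled in knockouts and Ciart in wild types.

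Set against one another per length, the members changed their order with temperature. In knockouts at 6 °C the mean RPKM levels, with SD, ran Tef 11.5 ± 2.00, Nfil3 8.19 ± 0.47, Bhlhe40 5.74 ± 3.02, Ciart 3.35 ± 1.04, Rora 2.72 ± 0.39, Hlf 2.51 ± 0.42, Dbp 2.18 ± 0.95 and Bhlhe41 0.95 ± 0.34 (n = 4). In that order only Tef was clear of the next gene, each later neighbour overlapping in range. In knockouts at 22 °C the order was Bhlhe40 21.3 ± 3.98, Tef 13.8 ± 3.74, Dbp 7.85 ± 2.39, Hlf 6.21 ± 0.96, Nfil3 2.97 ± 0.29, Ciart 2.51 ± 1.03, Rora 2.01 ± 0.20 and Bhlhe41 1.94 ± 0.24 RPKM (n = 4). Here only Hlf and Nfil3 were neighbours whose ranges did not overlap. The RPKM values equal the deposited counts divided by a fixed length per gene and by the column total; how that length was set is not stated.

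Wild types showed the same pair of leading genes at each temperature. At 6 °C their mean levels ran Tef 13.8 ± 1.56, Nfil3 10.3 ± 1.16, Bhlhe40 6.44 ± 1.14, Ciart 4.23 ± 0.34, Rora 2.84 ± 0.16, Hlf 2.83 ± 0.69, Dbp 2.34 ± 0.37 and Bhlhe41 1.41 ± 0.42 RPKM (SD, n = 5). Each gene down to Ciart was clear of the next in range, and the rest overlapped with their neighbours. At 22 °C the order was Bhlhe40 17.9 ± 5.93, Tef 15.1 ± 2.74, Dbp 5.96 ± 1.80, Hlf 5.67 ± 1.01, Nfil3 4.17 ± 1.27, Rora 2.22 ± 0.08, Ciart 1.91 ± 0.49 and Bhlhe41 1.68 ± 0.35 RPKM (SD, n = 4). Bhlhe40 and Tef overlapped, Tef was clear of Dbp and Nfil3 was clear of Rora.

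Because the PAR-bZIP activators and Nfil3 bind the same element, their summed and single levels were set side by side, as a description without a test. These are levels of RNA, not of protein. Sums, ratios and shares depend on the fixed lengths implied by the RPKM values, 2993 bases for Dbp, 7865 for Tef, 6681 for Hlf and 2026 for Nfil3. The sum of Dbp, Tef and Hlf over Nfil3, in RPKM, was 2.27, 2.16, 1.74 and 1.70 in knockouts at 6 °C against 7.88, 9.74, 12.1 and 7.73 in knockouts at 22 °C. Wild types at 6 °C had ratios of 1.64, 1.91, 1.83, 1.89 and 1.97 against 9.07, 3.71, 9.84 and 5.54 in wild types at 22 °C. The cold values of both genotypes lay close together, and at 22 °C the lowest ratio was that of wild-type mouse 2. Tef made up 71.3% of the summed activator level in knockouts at 6 °C against 49.3% in knockouts at 22 °C, and 72.7% in wild types at 6 °C against 56.6% in wild types at 22 °C. Dbp made up 13.01% in knockouts at 6 °C against 27.9% in knockouts at 22 °C, and 12.4% in wild types at 6 °C against 22.1% in wild types at 22 °C. Hlf made up 15.7% in knockouts at 6 °C against 22.9% in knockouts at 22 °C, and 14.9% in wild types at 6 °C against 21.3% in wild types at 22 °C. Tef thus held a larger share, and Dbp and Hlf smaller shares, in the cold groups. The ratio of Bhlhe40 to Bhlhe41 RPKM averaged 6.84 ± 4.29 in knockouts at 6 °C against 11.02 ± 2.06 in knockouts at 22 °C, and 4.95 ± 1.89 in wild types at 6 °C against 10.8 ± 3.10 in wild types at 22 °C (SD).

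**Figure D3:**
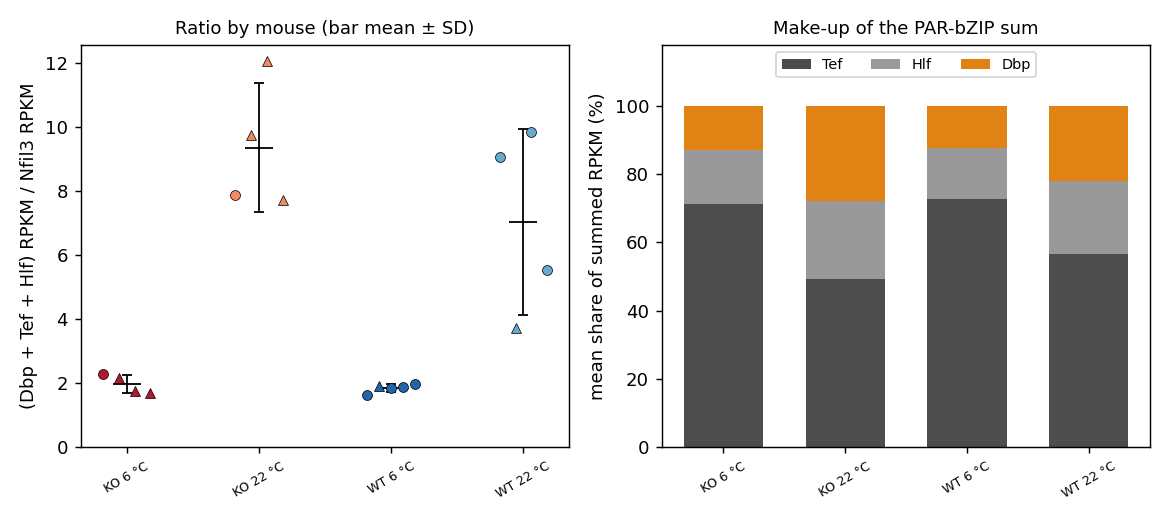
Left, the sum of Dbp, Tef and Hlf over Nfil3 (ratio of RPKM, linear axis from 0) in every mouse; right, the mean share of that sum (percent) held by Tef, Hlf and Dbp in each group. The cold mice of both genotypes lie between 1.64 and 2.27 and all mice at 22 °C lie above them, with Tef holding 71.3% of the sum in cold knockouts and 72.7% in cold wild types.

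No member passed the test of the genotype difference. At 6 °C 0 of 8 members were called by edgeR, where 0.0400% of tested genes were, 2 members had an unadjusted p below 0.05 (Nfil3 and Bhlhe41), and DESeq2 and limma-trend also called 0. At 22 °C 0 of 8 were called by edgeR, where 0.0160% of tested genes were, 2 had an unadjusted p below 0.05 (Dbp and Nfil3), and DESeq2 and limma-trend also called 0. Over all tested genes, 393 at 6 °C and 486 at 22 °C had an unadjusted p below 0.05. Genotype groups did not overlap for 1 member at 6 °C, Nfil3, against 1.04% of tested genes, and for 0 of 8 at 22 °C, against 4.22%.

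Nfil3 had a lower mean level in knockouts at either temperature, short of the test's threshold. Its cold knockouts, at 16.3 to 18.3 CPM, all lay below the cold wild types, at 19.0 to 25.3 CPM. The log2 difference of Nfil3, knockout over wild type, was -0.36 at 6 °C (95% interval -0.71 to -0.01, adjusted p = 0.9991) and -0.38 at 22 °C (95% interval -0.74 to -0.02, adjusted p = 0.9975). The value at 22 °C was -0.09 without wild-type mouse 2, whose Nfil3 was the highest of its group. Nfil3 at 6 °C was -0.25 without the same mouse, which enters that value only through the shared sex term, scaling and spread.

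Bhlhe41 at 6 °C had a log2 difference of -0.71 (95% interval -1.24 to -0.18, adjusted p = 0.9991), with knockouts at 3.75 to 10.0 CPM and wild types at 6.70 to 14.6 CPM. That difference was -1.09 with the replicate number as a block and -0.41 on the log2(RPKM + 1) scale. Dbp at 22 °C had a difference of 0.71 (95% interval 0.15 to 1.27, adjusted p = 0.9975), with knockouts at 16.8 to 30.3 CPM and wild types at 11.3 to 21.5 CPM. The difference of Dbp was 0.54 without wild-type 22 °C mouse 2 and 0.47 on the log2(RPKM + 1) scale. For both genes the ranges of the genotypes overlapped. The other differences ran, at 6 °C, from -0.31 (Ciart) to 0.05 (Dbp), and at 22 °C from 0.04 (Rora, which turned to -0.12 with total-count scaling) to 0.58 (Bhlhe40). Their 95% intervals all included 0, the widest reaching -0.90 for Ciart at 6 °C and 1.21 for Ciart at 22 °C, so differences of that size are not excluded. Ciart at 6 °C was -0.72 without knockout 6 °C mouse 1, -0.19 without knockout 22 °C mouse 1, -0.18 without knockout 6 °C mouse 4 and -0.097 with only the groups compared. Ciart at 22 °C (0.56) was 0.89 without knockout mouse 1 and 0.27 with only the groups compared. Bhlhe40 at 22 °C was 0.37 without knockout mouse 4 and 0.32 with only the groups compared. Hlf at 6 °C (-0.21) was -0.0038 without wild-type mouse 2, -0.12 without knockout mouse 4 and -0.12 with no sex term.

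**Figure D4:**
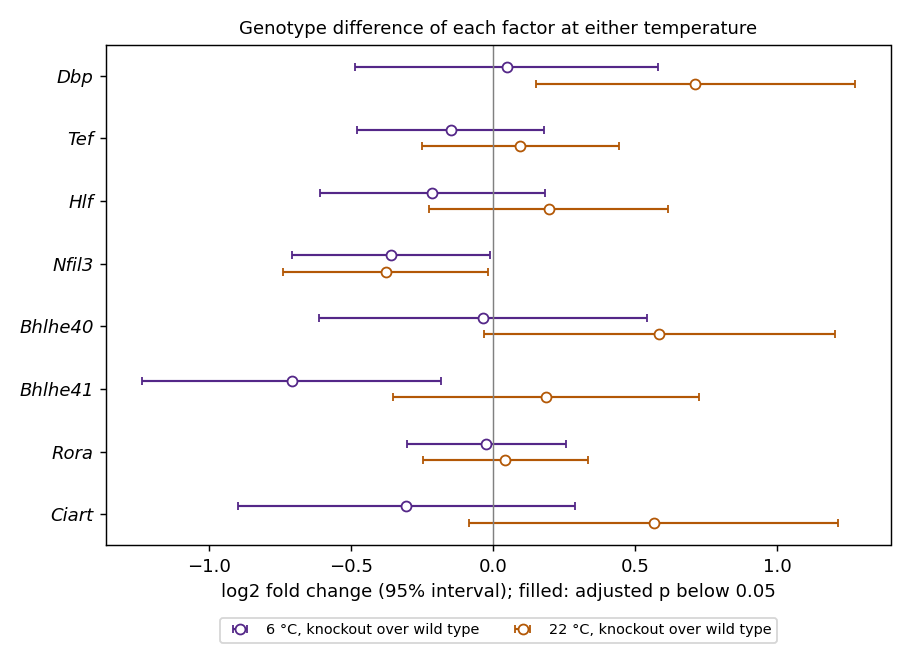
Log2 fold change of each gene in knockouts over wild types at 6 °C (purple) and at 22 °C (orange), with 95% intervals; open points did not pass an adjusted p below 0.05. All points are open, and the intervals of Nfil3 at both temperatures, Bhlhe41 at 6 °C and Dbp at 22 °C do not reach 0.

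Whether the cold response itself differed between the genotypes was tested by the interaction of genotype and temperature. The test in edgeR called 0 of 8 members, where 0.00801% of tested genes were called; 2 members, Bhlhe41 and Ciart, had an unadjusted p below 0.05, as had 310 of all tested genes, and DESeq2 and limma-trend called 0 members. For Bhlhe41 the knockout response minus the wild-type response was -0.90 (95% interval -1.59 to -0.20, adjusted p = 0.9997). For Ciart it was -0.87 (95% interval -1.68 to -0.06, adjusted p = 0.9997). So the fall of Bhlhe41 in knockouts and the rise of Ciart in wild types were not shown to differ from the other genotype's response. Dbp (-0.66), Bhlhe40 (-0.62), Hlf (-0.41) and Tef (-0.25) had lower values in the knockout response, while those of Rora (-0.07, but 0.09 with total-count scaling) and Nfil3 (0.02) were near 0. The interval of Nfil3, -0.45 to 0.49, bounds any difference in its rise. These values shifted with single mice. Bhlhe40 was -1.02 without knockout 6 °C mouse 1 and -0.39 without knockout 22 °C mouse 4, and Ciart ran between -1.12 and -0.66 as each library was left out. Hlf was -0.20 without wild-type 22 °C mouse 2, and Tef was -0.064 without knockout 22 °C mouse 3. With the majority sex of each genotype alone, Bhlhe40 was -1.15, Ciart -1.33 and Hlf -0.26, and on the log2(RPKM + 1) scale Bhlhe41 was -0.46 and Ciart -0.53. The genotype and interaction comparisons share mice with the cold responses and are not independent of them.

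Other genes of the clock were read from lists assembled around the 8 members. Beside the counts in each list, 21.6% of all tested genes were called in the knockout cold response (11.6% rose, 10.0% fell). In the wild-type cold response 27.6% were called (14.3% rose, 13.3% fell). A count near these shares is not particular to its list, and the same holds for the marker genes above. Of the 12 core loop genes, 4 rose and 1 fell in knockouts, and 6 rose and 1 fell in wild types, with a median log2 change of 0.11 in knockouts (-0.02 over all tested genes) and 0.56 in wild types (-0.03 over all tested genes). Per3, a period gene, fell by 2.38 in knockouts and fell by 2.06 in wild types, and Arntl, which encodes BMAL1, rose by 1.79 in knockouts and by 1.71 in wild types. Per2, a repressor of the loop, rose by 1.35 in wild types, and in knockouts its log2 change was 0.66 (adjusted p = 0.0618). For Per2 the difference between the genotypes' responses did not pass (adjusted p = 0.9997). Of 10 clock kinases and ubiquitin ligases, 2 rose and 1 fell in knockouts and 3 rose and 1 fell in wild types, with medians of 0.19 in knockouts and 0.18 in wild types. Btrc, an F-box subunit that marks PER proteins for degradation, fell by 0.53 in knockouts and fell by 0.64 in wild types. Of 9 clock-controlled genes, 2 rose and 0 fell by edgeR in knockouts and 5 rose and 0 fell in wild types, with medians of 0.26 in knockouts and 0.69 in wild types. These counts include Noct, the targeted gene, at 1.33 in wild types (adjusted p = 0.0332) and 0.79 in knockouts (adjusted p = 0.257). They also include Usp2, which is in the list of kinases and ligases too. The difference between the genotypes' responses passed for 0 of the 9. Cdkn1a, a cell cycle inhibitor of this list, rose by 1.79 in knockouts and by 1.76 in wild types. Leo1, a subunit of an elongation complex, rose by 0.66 in knockouts and by 0.69 in wild types.

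Genes known in liver to depend on the PAR-bZIP activators were mostly too low to test, since 4 of 10 passed the filter, and 1 fell in knockouts and 1 rose in wild types. Alas1, the gene of the first enzyme of haem synthesis, fell by 0.73 ± 0.15 in knockouts (adjusted p = 0.00253). In wild types its log2 change was -0.30 (adjusted p = 0.133), and the difference between the genotypes' responses did not pass (adjusted p = 0.9997). Cyp2b10, a drug-metabolising cytochrome gene, rose by 2.32 ± 0.71 in wild types (adjusted p = 0.0227), a call that was lost without wild-type 22 °C mouse 3 (adjusted p = 0.0571) or mouse 4 (adjusted p = 0.0809) and with only the groups compared (2.47, adjusted p = 0.0534). Its log2 change in knockouts was 1.65 (adjusted p = 0.0932). Among 9 tested C/EBP and HES/HEY factors, relatives of the members by their DNA-binding fold, 0 rose and 1 fell by edgeR in knockouts and 1 rose and 1 fell in wild types. The counts of this list and of the PAR-bZIP list stand beside 21.6% of all tested genes in knockouts and 27.6% in wild types. Cebpa, a factor of adipocyte differentiation, fell by 1.34 in knockouts and fell by 2.03 in wild types. The falls of Per3 and Cebpa and the rises of Arntl and Cdkn1a in both genotypes, the rises of Per2 in wild types and Leo1 in knockouts, and the falls of Alas1 in knockouts and Btrc in wild types passed in all 28 alternatives run. The call of Btrc in knockouts was lost in 7 of 28, among them without knockout 22 °C mouse 1, 2 or 3 or knockout 6 °C mouse 2 or 3 (adjusted p 0.0524 to 0.0924). The rises of Per1 in knockouts (1.01), Fbxw11 (0.37 in knockouts, 0.42 in wild types), Csnk1d in knockouts (0.35), and Usp2 (0.73), Cebpg (0.44) and Noct (1.33) in wild types were each lost in 1 to 10 of 28. Per1 (0.96, adjusted p = 0.00987) and Csnk1d (0.29, adjusted p = 0.0324) rose in wild types too. For the wild-type rises of Per1, Csnk1d and Leo1 the alternatives were not read. Single libraries ended the call of Csnk1d (knockout 22 °C mouse 2 or 4, adjusted p 0.0534 to 0.0607) and of Usp2 (wild-type 22 °C mouse 1, 2 or 4 or 6 °C mouse 1 or 3, adjusted p 0.0545 to 0.110). They also ended that of Cebpg (wild-type 22 °C mouse 3 or 4 or 6 °C mouse 1 or 3, adjusted p 0.0513 to 0.0888) and of Noct (wild-type 22 °C mouse 1, 2 or 3 or 6 °C mouse 1, 2 or 5, adjusted p 0.0503 to 0.0926).

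The genes whose profile over the 17 libraries came closest to each member were found by the root mean square difference between log2 CPM profiles centred per gene, among 7822 genes with a mean of at least 5 CPM. Rora had the closest, Ascc3 at 0.11 and Tcf12 at 0.12, beside a root mean square of 0.31 for its own profile. For Nfil3 they were Dnajc27 and Adam12, both at 0.22 beside 0.81 for its own profile. Dnajc27 averaged 19.9 ± 3.97 CPM in knockouts at 6 °C against 6.76 ± 0.48 CPM in knockouts at 22 °C, and 22.3 ± 2.65 CPM in wild types at 6 °C against 8.77 ± 2.20 CPM in wild types at 22 °C (SD). For Dbp they were Slc25a48 (0.28) and Mum1 (0.37) beside 0.83 for its own profile, for Hlf P2ry1 (0.23) and Dnajc28 (0.24) beside 0.58, and for Bhlhe40 Mid1ip1 (0.32) and Ppp1r3b (0.38) beside 0.89. Slc25a48 averaged 6.32 ± 2.45 CPM in knockouts at 6 °C against 20.6 ± 4.09 CPM in knockouts at 22 °C, and 6.07 ± 1.501 CPM in wild types at 6 °C against 15.1 ± 1.57 CPM in wild types at 22 °C (SD). Tef was closest to Cipc (0.15) and Adgra3 (0.16), Bhlhe41 to Zfp974 (0.36) and Cdkn1b (0.37), and Ciart to Slc4a8 (0.33) and Acer2 (0.34), beside 0.21, 0.51 and 0.65 for their own profiles. The libraries compared share depth and scaling, and the distances are a description of these mice.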

How the data were processed

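Brown adipose tissue mRNA of 17 mice was sequenced. The authors deposited a table of raw read counts per gene symbol and a table of RPKM values, which equal those counts per length and column total. The submitters' processing notes name STAR, HTSeq and the builds mm10 and GRCm38.p6; versions, annotation and strand setting are not given in the sources used here. Columns without a sample numbered 0.

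The deposited counts went into edgeR 4.0.16 (R 4.3.3): filterByExpr by group, TMM scaling, and a quasi-likelihood fit to all 17 libraries with group means and labelled sex (12 residual degrees of freedom). P values were adjusted by Benjamini-Hochberg over the 12486 tested genes, with a threshold of 0.05. Log2 fold changes are given ± SE with 95% intervals. The procedure was tested on simulated data. Sums, ratios and levels across genes were taken from RPKM. Library totals were 18410748 to 47598200, and the smallest count of a member in a library was 95.

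Alternatives were DESeq2 size factors, total counts, no low-count filter, the Wald test of DESeq2 1.42.0, no sex term, sex with labelled age, the replicate number as a block, only the groups compared, the majority sex of each genotype, each library left out in turn, and limma-trend (limma 3.58.1) on log2(RPKM + 1) and log2(RPKM + 0.1).

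The members and the gene lists were chosen with earlier results of these data known. The rule for named genes took all members, Noct, for each list and cold response up to 3 passing genes with the largest change, and the 2 genes nearest to each member in profile; Ppargc1a, Lep, Sphk2 and the overlapping transcripts were chosen after their values were seen. Positions are from GENCODE vM21 on GRCm38, promoters from RefSeq.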

Additional observations from a re-analysis of the deposited data

Results flagged for a closer look

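Bhlhe40 had 49.3 CPM in knockout 6 °C mouse 1, against 20.0 to 23.1 CPM in the other mice of that group. The gap to the next mouse was 0.897 of the group's range, past the critical value for 4 samples. With 36 groups of values examined, chance flags about 1 group in 20. This mouse was the single female of its group, and whether sex bears on the value was not tested. Without it, Bhlhe40 fell by 2.28 in the knockout cold response and had a log2 difference between the genotypes at 6 °C of -0.64.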

How the results depend on the processing

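Of 8 members, 6, 6, 0, 0 and 0 were called (cold response in knockouts, in wild types, genotype at 6 °C, at 22 °C, and the difference between the cold responses), and these counts held in the 28 alternatives, 17 of them leaving out 1 library, except that 5 were called in the knockout cold response with only the groups compared and with the majority sex. Of 336 values for the 12 called cold responses, 334 kept call and direction; the exceptions were Rora in knockouts, given above.

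Whether replicate numbers pair the mice cannot be told from the profiles. Same-numbered mice of different groups had correlations of -0.42 to 0.44 (median 0.03, 24 pairs, 11 above 0.1). Other pairs had -0.48 to 0.61 (median -0.04, 84 pairs, 27 above 0.1). With the number as a block, 2220 and 2609 genes were called in the knockout and wild-type cold responses, 4 and 0 for genotype at 6 and 22 °C and 1 for the difference, and 6, 6, 0, 0 and 0 members.

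All 52 reversed values were not called in either setting. Total counts: Tef -0.13 (wild-type cold) and -0.035 (22 °C), Rora -0.12 (22 °C) and 0.086 (difference). No sex term: Dbp -0.065 (6 °C). Sex with age: Dbp -0.026 and Bhlhe40 0.18 (6 °C), Nfil3 -0.077 (difference). Block: Bhlhe41 -0.13 and Rora -0.052 (22 °C). Only the groups compared: Bhlhe40 0.14 and Rora 0.043 (6 °C), Rora -0.015 (22 °C). Majority sex: Nfil3 -0.15 (difference). Log2(RPKM + 1): Tef -0.12 and -0.057, Rora -0.077 and 0.052, in the order given for total counts. Log2(RPKM + 0.1): Tef -0.13 and -0.061, Rora -0.11 and 0.077. Leaving out each library gave Bhlhe40 -0.64 to 0.059, Dbp -0.25 to 0.29 and Rora -0.10 to 0.0396 at 6 °C; Hlf -0.11 to 0.32, Rora -0.075 to 0.10 and Tef -0.054 to 0.22 at 22 °C; Nfil3 -0.16 to 0.19 and Rora -0.13 to 0.074 for the difference; Bhlhe41 -0.18 to 0.083 and Tef -0.0039 to 0.20 in the wild-type cold response; and Tef -0.25 to 0.0038 in the knockout one.

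Among all genes, 1589 were called in the knockout cold response with only the groups compared and 1647 with the majority sex, against 2697. For genotype at 6 °C, 5 genes became 3 (total counts, sex with age, only the groups compared, log2(RPKM + 1)) or 12 (DESeq2), and 3 to 5 without 1 library. For genotype at 22 °C, 2 genes became 10 (DESeq2), 4 (no sex term, either pseudocount) or 0 (block, only the groups compared), and 1 to 3 without 1 library. Rises made up 53.6% of knockout and 51.8% of wild-type cold calls, but 43.9% and 23% with total counts, 41.3% and 22% with log2(RPKM + 1), and 42.5% and 22.4% with log2(RPKM + 0.1). Total counts moved the median of all genes by -0.20 in the wild-type cold response and by -0.18 for genotype at 22 °C. The Noct difference at 22 °C (-3.57, adjusted p = 0.0200) was lost in 6 of 27 alternatives: with the block (adjusted p = 0.239), with only the groups compared (0.579), and without wild-type mouse 2 (0.19) or 4 (0.0512) or knockout mouse 1 (0.289) or 2 (0.0695). The causes were not tested.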
